A study of Xenopus tropicalis with 132 samples.

Results

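Single-nucleus ATAC-seq of Xenopus tropicalis gastrulae at stage 10.5 gave 1183 cell barcodes with at least 3000 fragments, out of 19604 barcodes in the deposited fragment file, and these 1183 are described here. They were chosen by fragment number alone. The source was whole embryos, with no treatment, genotype or strain named, so every germ layer of the early gastrula could be present. The 4 labelled parts of this material were deposited as 1 pooled file and every barcode carries the same suffix. The barcodes were therefore treated as 1 sample without replicates, no test over samples was possible, and barcodes shared between parts could not be counted. The wider series of 132 samples also holds bulk ATAC-seq, bulk RNA-seq of animal caps, and RNA counts of single cells from explants, of which only the last are used below.

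In ATAC-seq the transposase Tn5 cuts DNA where it is not covered by protein and adds sequencing adapters. A fragment between a pair of cuts within open DNA is short, a fragment that spans a nucleosome is about as long as the DNA wrapped around it plus the linker, and longer classes span several nucleosomes. In nuclei, fragments are known to gather at promoters and enhancers. At the start of gastrulation the Xenopus embryo has recently begun broad zygotic transcription, and ectoderm, mesoderm, endoderm and the dorsal organizer (the signalling centre of the dorsal lip) are being specified.

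The 1183 barcodes held 14758731 of 19962738 fragments (73.9%), with a median of 9184 fragments per barcode (quartiles 5477.5 and 15173, range 3002 to 112502). Of them 935 had at least 5000 fragments, 548 at least 10000, 176 at least 20000 and 19 at least 50000. The 18421 barcodes under 3000 fragments had a median of 218. Each fragment rested on 2.31 read pairs on average in barcodes with 3000 or more fragments and on 3.19 in barcodes below. Just inside the threshold lay barcodes of 3002, 3003 and 3018 fragments, and just outside it barcodes of 2995, 2989 and 2989. No chromosome, start and end position was listed under more than 1 of the 1183 barcodes. The file lists unique fragments as processed by the authors, so this does not show whether barcodes shared fragments before that step.

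Fragments of nucleosome length made up a larger share in these barcodes than in the barcodes below the threshold. The median share of fragments under 150 bases was 48.2% in barcodes with 3000 or more fragments (quartiles 45.8% and 50.5%), against 73.3% in barcodes under 3000 (quartiles 70.0% and 76.2%). Fragments of 150 to under 300 bases, long enough for 1 nucleosome, had a median share of 37.7% against 20.9%. Fragments of 300 to under 450 bases had 12.4% against 5.21%, and fragments of 450 bases or more 1.63% against 0.535%. The interquartile ranges of the shortest class lay apart, although single barcodes with 3000 or more fragments reached from 27.9% to 83.8%. The 435 barcodes of 1000 to under 3000 fragments lay near the members, with a median of 51.8% under 150 bases.

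The length distribution of the 1183 barcodes had a mode at 50 bases, a trough at 135 bases and a second mode at 164 bases, with a median length of 155 bases. In the barcodes under 3000 fragments the mode lay at 50 bases and the median length was 92 bases. In the range searched for a second mode their curve was highest at 163 bases, without a clear mode there. Between 300 and 450 bases the curve of the members ran as a shoulder without a mode of its own. A share under 150 bases that varied only by counting would have had a far narrower spread, since at 3000 fragments a barcode its variance between barcodes was 31.2 times the binomial variance.

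**Figure D1:**
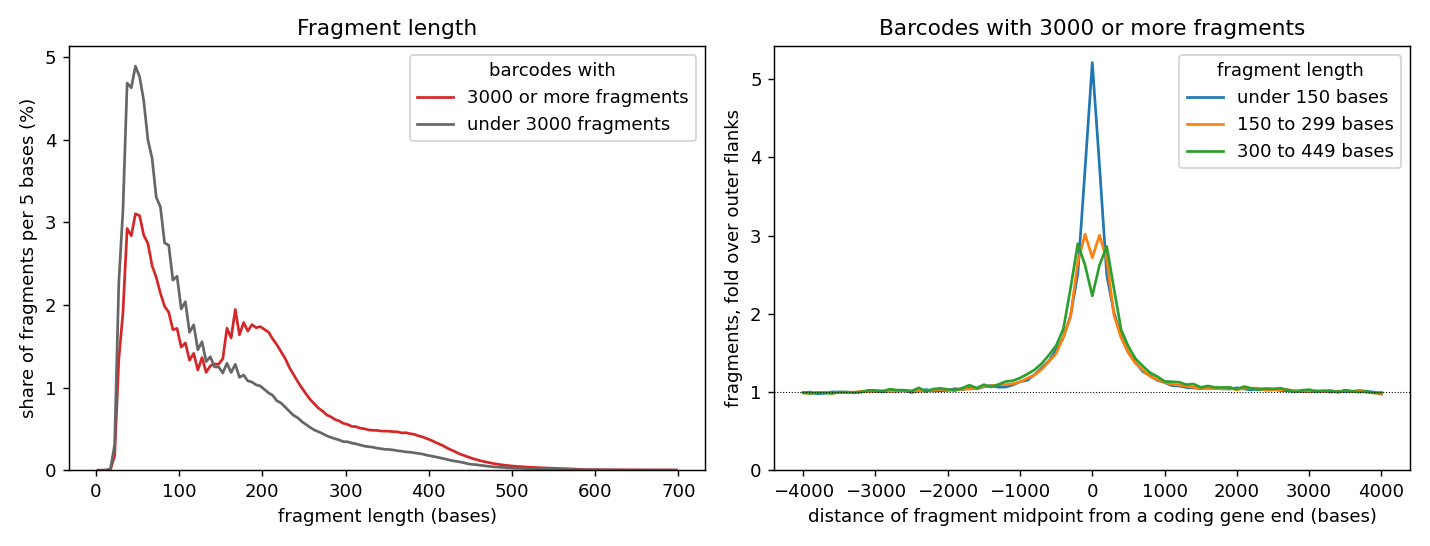
Left, share of fragments per 5 bases of length in barcodes with 3000 or more fragments (red) and under 3000 (grey); right, fragments per 100 bases of distance from a coding gene end, as fold over the outer flanks, by fragment length in the barcodes with 3000 or more. The red curve has a second mode at 164 bases and the grey curve has no clear one. Fragments under 150 bases peak at 5.21-fold on the gene end while longer ones peak beside it.

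Fragments gathered at gene ends, and the length classes did so differently. Gene ends are the first and the last base of a coding gene in the RefSeq table of assembly UCB_Xtro_10.0, which names no strand, so each gene counts with both its start and its end of transcription. Fragment midpoints of the 1183 barcodes reached 3.89 times the flank level within the 100 bases centred on a gene end, against 1.93 times in barcodes under 3000 fragments. Barcodes just below the threshold lay closer in the share of fragments within 1 kb of a gene end. Thinned to 1000 fragments each, the 1183 barcodes had a median share of 12% (quartiles 10.4% and 14.05%). The 435 barcodes of 1000 to under 3000 fragments had 11% (quartiles 9.2% and 13.1%), so the quartile ranges overlapped. The pile-up of these 435 alone was not counted. In the 1183 barcodes, fragments under 150 bases were highest on the gene end itself, at 5.21-fold. Fragments of 150 to under 300 bases had a dip there, at 2.72-fold, between 3.02-fold and 3.01-fold at 100 bases to either side. Fragments of 300 to under 450 bases were at 2.23-fold on the gene end and at 2.90-fold and 2.86-fold at 200 bases to either side. The pile-up on this table's gene ends is also what ties the fragment coordinates to that assembly, since no build is named with the file.

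Pooled over barcodes, the 10 chromosomes were covered close to their lengths. Chr1 took 14% of the fragments with 15% of the summed length, and Chr10 took 4.32% with 3.62%. The density lay between 9527 fragments per Mb on Chr1 and 12170 on Chr10, the chromosomes with 13.2 and 20.98 coding genes per Mb. Chr9 came next to Chr10 in both, with 10953 fragments and 19.8 genes per Mb. The order differed among the others: Chr8 had 9976 fragments and 18.3 genes per Mb. Chr6, with the fewest genes per Mb (11.6), had 10104 fragments per Mb. Chromosome lengths here are the last fragment end on each chromosome.

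Single barcodes did not follow this pooled profile, so a barcode is not read here as an even sample of a whole genome. The cause was not tested. Each barcode was thinned once to 3000 fragments so that all had equal number. Between barcodes the variance of the share on a chromosome was then 99.4 (Chr10) to 246 (Chr1) times the binomial variance, with a median of 199.6 over the 10 chromosomes. In 959 barcodes (81.1%) at least 1 chromosome had under 0.25 of its pooled share, and in 487 (41.2%) at least 3 had. In 895 barcodes (75.7%) at least 1 chromosome had more than 2 times its pooled share. Only 168 barcodes (14.2%) had all 10 chromosomes between these limits. The share on Chr1, for example, ran from 0.1% to 44.5% with a median of 13.1%, and the share on Chr10 from 0% to 16.0% with a median of 3.57%.

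The unevenness had the scale of megabases. These window measures were added after the data had been seen. Of 1455 windows of 1 Mb, the median barcode had a fragment in 30.2% (quartiles 22.03% and 43.6%, range 10.5% to 82.0%). A barcode of 3000 fragments that followed the pooled profile would have one in 84.4%. A fragment was present in at least 50% of the windows for 209 barcodes (17.7%), in at least 75% for 42 (3.55%) and in under 25% for 417 (35.2%). The windows that held 50% of a barcode's fragments numbered 88 at the median (range 17 to 335), against 359 for the pooled profile with counting error included. Neighbouring windows were alike within a barcode: the correlation of the deviation from the pooled profile was 0.63 at a distance of 1 Mb, 0.36 at 5 Mb, 0.22 at 10 Mb and 0.02 at 50 Mb.

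**Figure D2:**
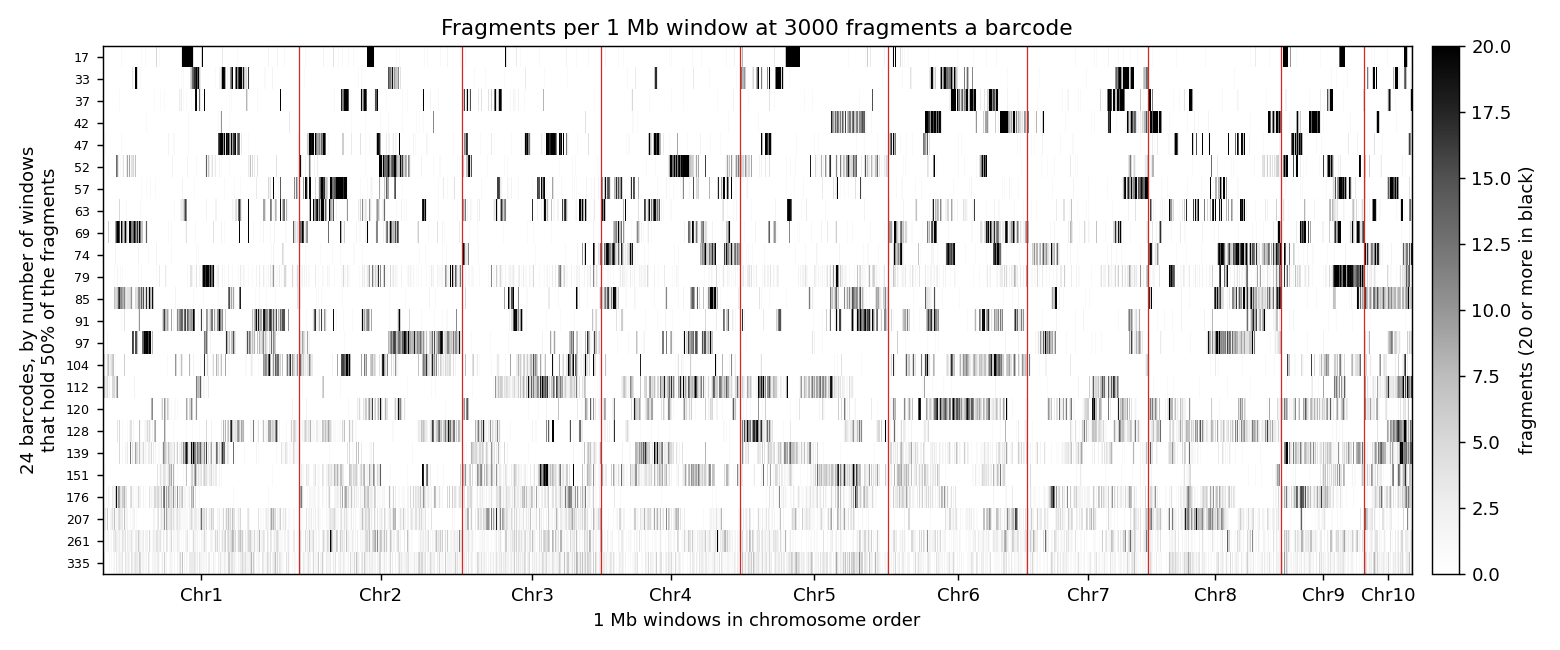
Fragments per 1 Mb window at 3000 fragments a barcode in 24 of the 1183 barcodes, taken at even ranks of the number of windows that hold 50% of the fragments (given at the left, 17 at the top and 335 at the bottom). Dark blocks of several neighbouring windows, in different places in each barcode, fill the upper rows, and the lowest rows are spread over all 10 chromosomes.

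Barcodes along this range show the pattern. The barcode with the most concentrated fragments (4818 fragments in the file) had 33.3% of its thinned fragments on Chr5 and 20.4% on Chr2, and 8 of 3000 on Chr8. The barcode at the median rank (7241 fragments) had 25.6% on Chr6, 18.03% on Chr1 and 12 of 3000 on Chr7. The most evenly spread barcode was also the largest, with 112502 fragments, and had 16.1% on Chr5, 14.5% on Chr1 and 4.60% on Chr10.

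Barcodes with more fragments in the file covered more windows, even though all were thinned to the same number. The median share of windows with a fragment was 20.5% for barcodes of 3000 to under 6000 fragments, 25.98% from 6000 to under 10000, 37.2% from 10000 to under 20000 and 48.7% from 20000 upwards. Spearman's rho of windows covered with fragment number was 0.664 over the 1183 barcodes, which share 1 pool. Thinned to 1000 fragments, the 1183 barcodes covered 22.7% at the median and the 435 barcodes of 1000 to under 3000 fragments 12.6%, where pooled profiles would give 48.6% and 47.9%. Within a barcode fragments seldom lay on top of each other: a median of 1.45% of covered bases lay under at least 2 fragments and 0.0258% under at least 3. This overlap was counted over all fragments of a barcode, without thinning, so it is not a value at equal fragment number.

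**Figure D3:**
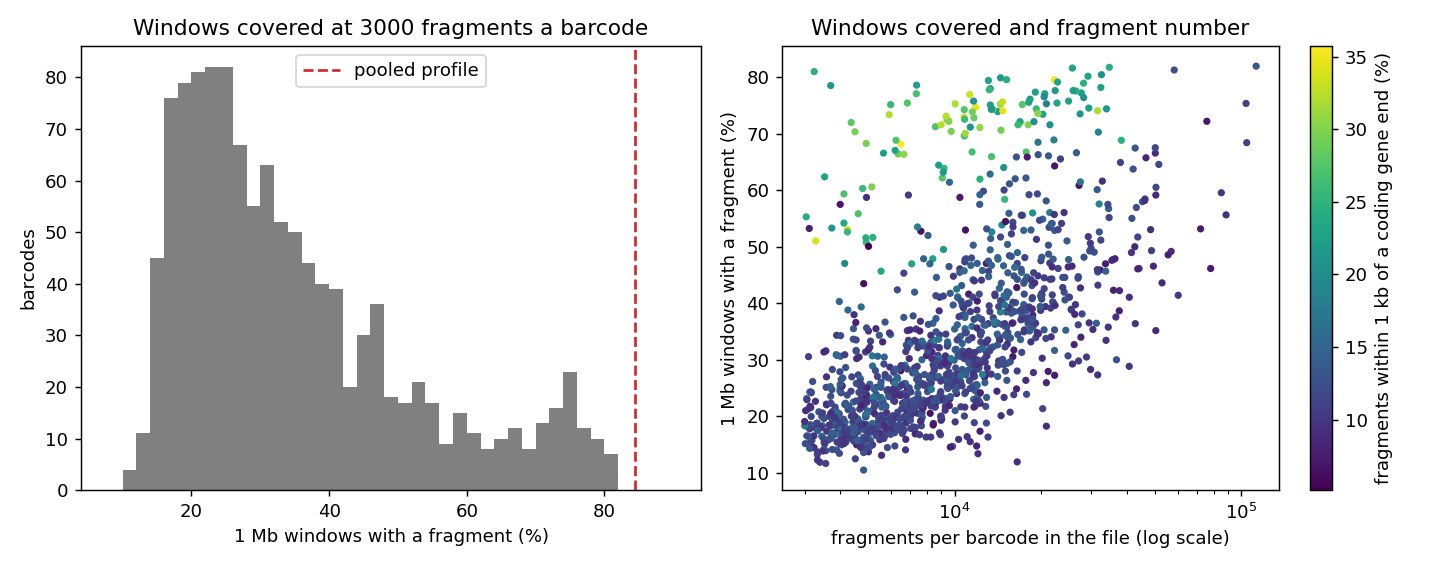
Left, number of barcodes by the share of 1 Mb windows with a fragment at 3000 fragments a barcode, with the 84.4% of the pooled profile dashed; right, the same share against fragments per barcode in the file (log scale), coloured by the share of fragments within 1 kb of a coding gene end. A main group lies around the median of 30.2%, and a smaller one above 60% holds most of the light points with high gene end shares.

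Few pairs of barcodes were much alike in the blocks that they covered. Window profiles were compared as deviations from the pooled profile of these same barcodes, so a low median correlation was built in. Over 699153 pairs of barcodes the correlation of these deviations had a median of -0.01 and a 99th percentile of 0.18. In 12 pairs, made of 21 barcodes, it passed 0.5. The barcode sequences of the 2 most alike pairs are printed to show how far the barcodes themselves resembled each other. Capitals mark the bases shared at the same position of the 16. The most alike pair, with a correlation of 0.927, had 8101 and 6387 fragments and shared 6 positions:
pair 1, first barcode: tttgaGgTCGagaAcG
pair 1, second barcode: gaaatGaTCGgatAgG
The next pair, at 0.906, had 3867 and 4539 fragments and shared 2 positions:
pair 2, first barcode: ctgaatGcaAggcttt
pair 2, second barcode: actgcgGtcAccgcga
A set of 3 barcodes, of 7987, 4557 and 5093 fragments, was alike in all 3 pairings, at correlations of 0.876 to 0.890. The 12 pairs shared between 1 and 7 positions, and all pairs of members had a median of 4 (5th to 95th percentile 1 to 7). Whether the barcode sequences had a part in these likenesses was not tested. The 6 largest correlations belonged to barcodes that covered 23.8% to 34.4% of the windows. Without these 21 barcodes the median share of windows covered was 30.03%.

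A high share of fragments at gene ends went together with wide coverage. Windows of 1 kb to either side of coding gene ends take up 5.61% of the bases, and the median barcode had 11.9% of its fragments there (quartiles 10.4% and 13.97%, range 5.13% to 35.7%). The variance between barcodes was 62.1 times the binomial variance. The share had a Spearman's rho of 0.01 with fragment number and a rho of 0.323 with windows covered. In 112 barcodes (9.47%) it was 20% or more; the cut of 20% was chosen after the values were seen, and 31 barcodes lay between 18% and 22%. Of these 112, 108 had a fragment in at least 50% of the windows, while 101 further barcodes covered as much with a lower gene end share.

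The 112 barcodes covered a median of 72.7% of the windows (quartiles 66.4% and 75.7%). The 742 barcodes with a gene end share of 10% to 15% covered a median of 27.4% (quartiles 21.3% and 37.9%). Their fragment numbers overlapped, with a median of 11760.5 and quartiles of 6797 and 18416 in the 112, against a median of 8667.5 and quartiles of 5466 and 14461 in the 742. Fragments under 150 bases were 45.5% in the 112 and 48.0% in the 742 at the median.

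The barcodes were also split by windows covered into groups of 296, 293, 297 and 297 barcodes, narrowest to widest. Their median gene end share was 11.3%, 11.8%, 11.7% and 14.4% in this order. Within barcodes of 6000 to under 20000 fragments it was 10.9%, 11.7%, 12.1% and 15.6%. The height of the pile-up on gene ends was 2.98-fold, 3.16-fold, 3.14-fold and 4.88-fold in the same order. The medians and pile-ups of the first 3 groups were close to each other, and those of the widest group were higher. The gene end shares still overlapped, with quartiles of 11.4% and 23.1% in the widest group and 10.2% and 13.6% in the third. The pile-up pooled all fragments without thinning, so barcodes with more fragments weighed more in it.

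**Figure D4:**
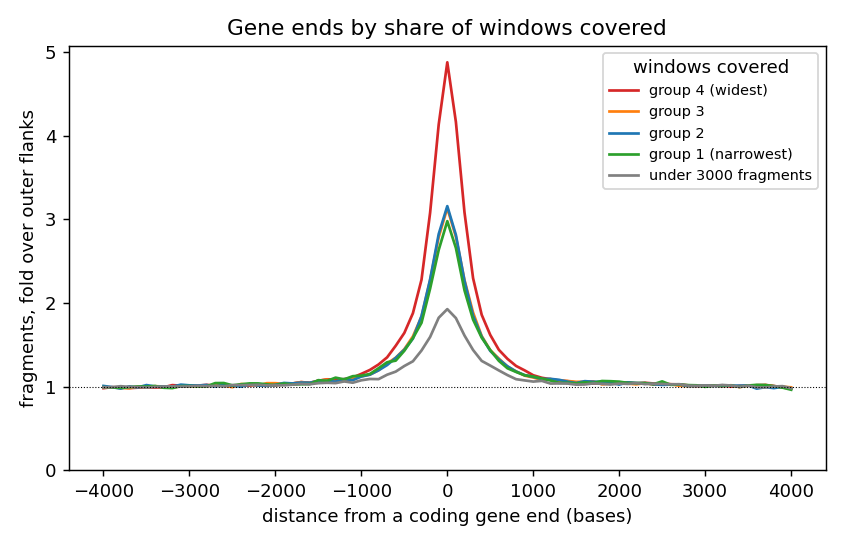
Fragments by distance of the midpoint from a coding gene end, as fold over the outer flanks, for the 4 groups of the 1183 barcodes by share of 1 Mb windows covered and for barcodes under 3000 fragments (grey). The widest group reaches 4.88-fold, the other groups 2.98-fold to 3.16-fold, and barcodes under 3000 reach 1.93-fold.

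Few places in the genome were open in many barcodes. At 3000 fragments a barcode, 27 of 289864 bins of 5 kb (0.00931%) had a fragment in at least 10% of the barcodes, which is the definition of a repeatedly open bin. The median bin was hit by 0.761% of the barcodes, 14991 bins by at least 2% and 928 by at least 5%. The 27 bins lay on all 10 chromosomes, with 6 on Chr2 and as many on Chr3, and held 0.188% of the thinned fragments. A coding gene lay within 5 kb of 20 of them (74.1%, against 63.6% of all bins). A tRNA gene, which RNA polymerase III transcribes, lay within 5 kb of 10 (37.0%, against 0.353% of all bins). Several of these 10 lay close together on Chr3, between positions 144350001 and 144660000, so they are not 10 separate regions. Whether reads could be placed on several tRNA gene copies was not tested. Of the 928 bins at 5%, 755 (81.4%) had a coding gene end within 1 kb, against 17.3% of all bins, and 105 (11.3%) a tRNA gene within 5 kb.

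The most often hit bin was Chr6:130885001-130890000, with 286 barcodes (24.2%, exact 95% interval 21.8% to 26.7%), and the table places 2 tRNA genes and no coding gene within 5 kb of it. It had 3.77 fragments per barcode that hit it. The next was Chr2:10590001-10595000, near 4 tRNA genes, with 207 barcodes (17.5%, interval 15.4% to 19.8%) and 2.60 fragments each. These bins held more fragments per barcode than the 1.38 to 1.76 of the other 25. The third, Chr10:5001-10000, was hit by 175 barcodes (14.8%) and its neighbour Chr10:10001-15000 by 138 (11.7%), both near a long non-coding RNA at the first bases of Chr10. These and all other intervals cover counting error only. Among the 27 bins, those named here were also hit most often in barcodes under 3000 fragments, which were not thinned. All bins of the genome were not ranked in those barcodes. The shares there were 1.56% (Chr6), 0.901% (Chr2), 1.04% and 1.35% (Chr10, in order). The other repeatedly open bins were hit by 0.168% to 0.396% of the barcodes under 3000 fragments.

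Most of the bins that followed had a protein-coding gene within 5 kb, as had 63.6% of all bins. Such genes are given here as the genes a bin lies at. Chr1:48795001-48800000, at hmgb2, which encodes a chromatin protein of the high mobility group, and galnt7, was hit by 147 barcodes (12.4%). The bin at eef1a1o, the oocyte form of translation elongation factor 1 alpha in Xenopus, and the bin at its paralogue eef1a1 were each hit by 138 (11.7%); reads may be shared between these copies. Bins at disp1 and fam177b (136 barcodes, with 1 tRNA gene nearby), at bcl2l12 and prmt1 (135), and at mex3b (134) were next. Further down came bins at arid1a, which encodes a subunit of the SWI/SNF remodelling complex (132 barcodes), at ptma, the prothymosin alpha gene (128), at brd2, a bromodomain gene (123), and at hes7.1, of the hairy and enhancer of split family that acts downstream of Notch (123, with 6 tRNA genes nearby). The bins from arid1a on were named after their values were seen. Others of like count were passed over, such as Chr3:144655001-144660000 (128 barcodes), near 11 tRNA genes and no coding gene.

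Among the 21748 coding genes, the median gene had a fragment within 1 kb of either end in 1.35% of the barcodes. The highest was hmgb2 with 139 barcodes (11.7%, interval 9.97% to 13.7%). The next were prmt1, an arginine methyltransferase gene (126 barcodes), eef1a1o (120), ptmap12 (117), crebzf (116), hnrnpa1, which encodes an RNA-binding protein (112), ier5 (110), ncl, the nucleolin gene (110), svbp (108) and hnrnpdl (104). These shares depend on whether a barcode covered the region at all. Of the 427 barcodes with another fragment within 500 kb of hmgb2, 130 (30.4%) had one at its ends, and the median over all coding genes counted in this way was 3.47%.

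Lists of genes that mark the germ layers of the gastrula, and genes of tissues that form later, were read in the same windows; the 135 names gave 128 coding genes. A gene was counted as often open with at least 32 barcodes, 2 times the median, and 20.6% of all coding genes were. The lists give the following shares, in each case as a description of 1 pooled sample.

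Of the ectoderm list, 9 of 17 matched genes were often open and the list median was 2.79% of barcodes. The highest were bambi, a pseudoreceptor that dampens BMP signalling (83 barcodes, 7.02%), dlx5, a homeobox gene of the non-neural ectoderm (79), foxi4.2, a forkhead gene of the ectoderm (77), and msx1, a BMP target (71). The ligand bmp4 had 59 and gata2 57. The lowest were krt12.5, a keratin gene (7 barcodes, 0.592%), foxi1 (11) and tp63, the epidermal p53 relative (13).

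Of the neural plate list, 8 of 14 genes were often open, with a median of 3.21%. The SoxC gene sox11 had 89 barcodes (7.52%), and the SoxB1 genes sox3 and sox2, which mark neural and pluripotent ectoderm, had 79 and 61. The geminin gene gmnn had 71, irx3 56, zic2 55 and otx2, a gene of the anterior neural plate, 41. The near-identical copies foxd4l1.1 and foxd4l1.2 had 28 and 18, which are uncertain where reads could be placed on either.

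Of the mesoderm list, 6 of 15 genes were often open, with a median of 2.45%. The homeobox gene hoxd1 had 74 barcodes (6.26%), and the T-box genes eomes, tbxt (brachyury) and vegt had 69, 58 and 42. The growth factor genes fgf8 and wnt8a had 49 and 36. The muscle determination genes myf5 and myod1 had 27 and 24, and msgn1, of the presomitic mesoderm, had 10.

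Of the organizer list, 5 of 14 genes were often open, with a median of 2.32%. The homeobox gene not had 66 barcodes (5.58%), szl 43, and nog, a BMP antagonist, and lhx1 40 each. The homeobox genes hhex and gsc had 38 and 26, and chrd.1, the chordin gene, 26. The antagonist genes dkk1 and cer1 had 16 and 11. Sizzled, which szl encodes, is known from the ventral side of the Xenopus gastrula, opposite the organizer, and without it 4 of 13 genes were often open.

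Of the endoderm list, 4 of 15 genes were often open, with a median of 1.94%. They were gata6 (42 barcodes, 3.55%), mix1, a Nodal target (41), foxa2 (35) and foxa1 (33). The sox17 copies sox17a, sox17b.1 and sox17b.2 had 27, 27 and 23, with the same uncertainty for the copies of sox17b. Both gata5 and bix1.1 had 6 (0.507%, interval 0.186% to 1.101%).

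Of the pluripotency and maternal factors, 8 of 11 genes were often open, with a median of 4.396%. The klf17 gene had 83 barcodes (7.02%), and the neighbouring Oct4-related genes pou5f3.2, pou5f3.1 and pou5f3.3 had 73, 66 and 63. The RNA-binding factors lin28b and lin28a had 57 and 52, while sox7 had 5.

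Genes that every cell uses were often open in 19 of 20 cases, with a median of 4.95%. They were led by ncl (110 barcodes, 9.30%), eef1a1 (96), tubb4b (90), eif4a1 (82) and polr2a, the large subunit of RNA polymerase II (80). Genes of later differentiated tissues were often open in 1 of 22 cases, with a median of 0.634%. The exception was elavl3, a neuronal RNA-binding protein gene, with 40 barcodes (3.38%). The albumin gene alb and the globin gene hbe1 had 2 each (0.169%, interval 0.0205% to 0.609%), and the lens crystallin gene crybb1 and the atrial peptide gene nppa had 5 each.

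The order of the lists was nearly the same where only barcodes with another fragment within 500 kb of the gene were counted. The medians were then 12.4% for genes every cell uses, 9.77% for pluripotency and maternal factors, 8.49% for neural plate, 6.97% for ectoderm, 5.68% for organizer, 5.58% for mesoderm, 4.38% for endoderm and 1.65% for later tissues. Organizer and mesoderm changed places between both countings. The shares do not say which barcodes carry several markers.

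**Figure D5:**
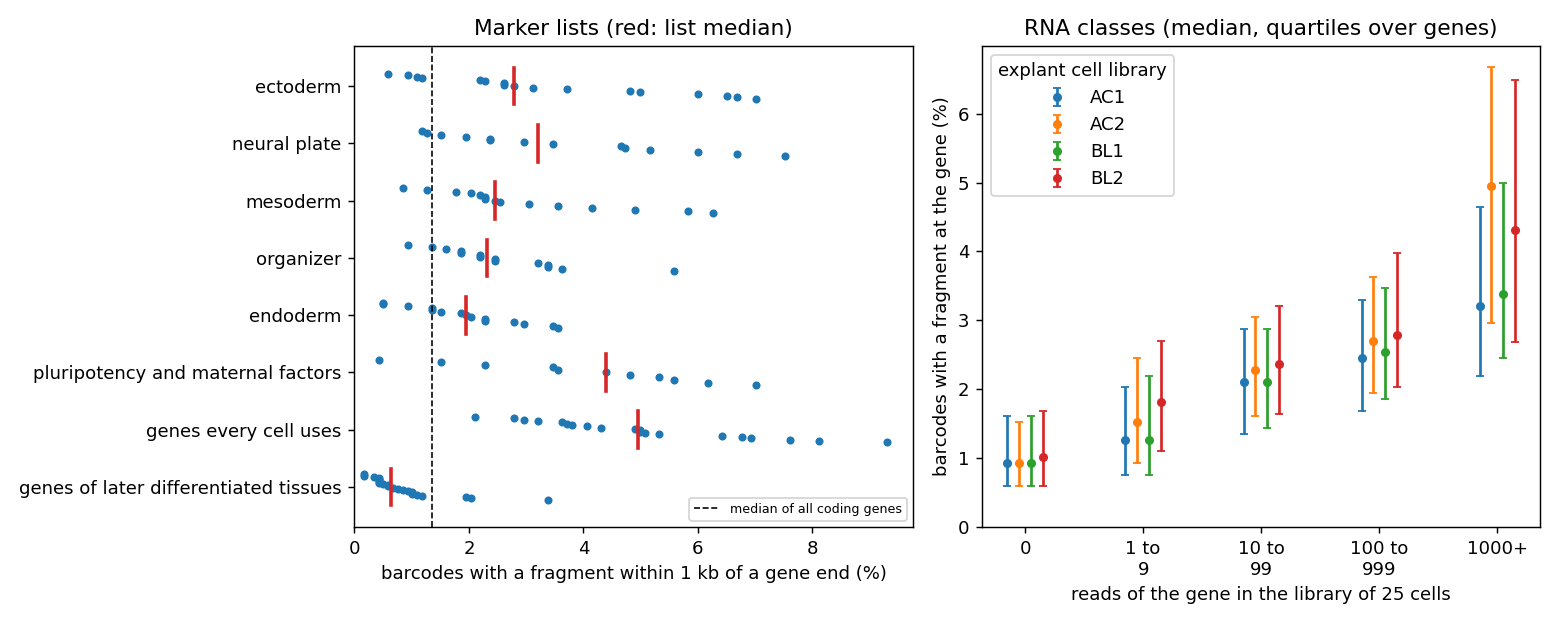
Left, share of the 1183 barcodes with a fragment within 1 kb of either end of each listed gene, with list medians in red and the median of all coding genes (1.35%) dashed; right, median and quartiles of the same share over genes grouped by their reads in each of 4 libraries of 25 single cells. The list of later tissues lies below the dashed line at its median, and in all 4 libraries genes with more reads have higher medians.

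Genes with more RNA in explant cells of the same stage were open in more barcodes. The single-cell RNA counts come from 4 libraries of 25 cells each, named AC1, AC2, BL1 and BL2. The explants were animal caps and dorsal marginal zones, and what BL stands for is not given in the labels. Of their gene names 12257 matched a coding gene. In AC1, with 3002901 reads in genes, the median share of barcodes was 0.930% for genes without a read, 1.27% for 1 to under 10 reads, 2.11% for 10 to under 100, 2.45% for 100 to under 1000 and 3.21% for 1000 or more. In AC2 the medians were 0.930%, 1.52%, 2.28%, 2.70% and 4.95% in the same classes. In BL1 they were 0.930%, 1.27%, 2.11%, 2.54% and 3.38%, and in BL2 1.01%, 1.82%, 2.37%, 2.79% and 4.31%. The quartile ranges of neighbouring classes overlapped in each library. Genes differ in length and reads are not scaled for it, so the classes are coarse.

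Most clusters of barcodes differed in the chromosomes that they covered. With 5 kb bins of Chr1, Chr3, Chr5, Chr7 and Chr9, the 1183 barcodes fell into 11 clusters of 34 to 175 barcodes. In 10 of them 1 of the clustered chromosomes had 1.57 to 2.28 times its share in the other barcodes, while the largest such ratio on a chromosome left out of the clustering was 1.29. Bins of the clustered chromosomes formed the clusters, so a ratio above 1 on them was built in. A larger share on these chromosomes also leaves less for the others, so the comparison is a description only. When the other chromosomes were clustered instead, 13 clusters formed and the adjusted Rand index between both was 0.0982, where 1 means the same partition. These clusters are not named as cell types.

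The remaining cluster, of 113 barcodes, combined wide coverage with a high gene end share. It covered a median of 72.9% of the 1 Mb windows, against 23.4% to 31.6% in the others. Its most over-represented clustered chromosome had 1.08 times its share in the rest. Its median gene end share was 24.6%, against 10.8% to 12.5% in the other clusters, and its median fragment number was 13312, against 7625 to 10872. It held 104 of the 112 barcodes with a gene end share of 20% or more. Of its barcodes 109 also fell together, in a cluster of 120, when the other chromosomes were used. Barcodes with a fragment in at least 50% of the windows numbered 209 in all, more than this cluster holds.

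On the chromosomes that were not used to form it, the cluster of 113 barcodes had a fragment at a coding gene's ends in 3.57% of barcodes on average, against 1.53% in the other 1070 barcodes, a ratio of 2.33. For the lists the ratio has to be read against this value, and the exact 95% interval given with each covers counting error only. It was 4.35 for ectoderm (12.4% against 2.85%, 9 genes, interval 3.498 to 5.396), 3.35 for neural plate (10.1% against 3.02%, 9 genes, interval 2.65 to 4.21) and 3.204 for pluripotency and maternal factors (12.5% against 3.90%, 8 genes, interval 2.56 to 3.98). All these intervals treat every hit as independent, although the barcodes share a pool and genes such as the pou5f3 copies are neighbours. The ratio was 3.16 for endoderm (5.69% against 1.80%, 7 genes, interval 2.201 to 4.45) and 3.11 for genes every cell uses (10.97% against 3.53%, 5 genes, interval 2.29 to 4.16). It was 2.47 for mesoderm (6.19% against 2.505%, 5 genes, interval 1.65 to 3.61) and 2.42 for organizer (5.66% against 2.34%, 5 genes, interval 1.59 to 3.598). For later tissues the ratio was 0.806 (0.506% against 0.628%, 7 genes, interval 0.211 to 2.204), resting on 4 hits in the cluster. The intervals give no test, and no list is called different from all coding genes. Fragment number, coverage and gene end share all move with this cluster, and their part in these ratios was not tested.

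The 5 genes with the largest ratio in the cluster of 113, among genes on the chromosomes left out of the clustering and open in at least 30 barcodes, were znf238.2, a zinc finger gene (24 of 113 against 20 of 1070 barcodes, 11.4-fold), pigt, which encodes a subunit of the enzyme that attaches glycolipid anchors (16 against 15 barcodes, 10.1-fold), tigd3 (15 against 15, 9.47-fold), sipa1l1 (19 against 20, 9.00-fold) and tpst1, a tyrosine sulfotransferase gene (15 against 16, 8.88-fold). None of these 5 genes had hits in 30 barcodes outside the cluster, so each passed the limit only with barcodes of the cluster itself. They were also chosen for the size of these ratios, and the ratio over all coding genes there was 2.33. In the other clusters the genes chosen in this way rested on 4 to 14 barcodes of the cluster, from 2.25-fold for gpr180 to 7.89-fold for ribc1. Most of these genes, such as gpr180 with 23 barcodes outside its cluster, also passed the limit only with barcodes of the cluster itself. Some, such as ribc1 with 30 outside, did not need them. All were likewise chosen for the size of their ratios.

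At equal fragment number the barcodes also differed in how many places their fragments fell into. At 3000 fragments the number of distinct 5 kb bins had a median of 2608 (quartiles 2418.5 and 2755, range 1231 to 2968), against 2973 for the pooled profile. It had a Spearman's rho of 0.856 with windows covered and 0.844 with fragments in the file. The share of fragments in the 27 repeatedly open bins had a median of 0.133%, from 0% to 1.23%, with a variance 4.96 times the binomial one. Barcodes with a higher gene end share had a lower share of fragments under 150 bases (rho -0.34).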

How the data were processed

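Nuclei of whole stage 10.5 embryos were prepared with the 10x Chromium Single Cell ATAC chemistry, per the labels' protocols, and processed with Cell Ranger ATAC, per the submitters' processing notes; its version, the aligner settings and the genome build are not given in the sources used here. The deposited fragment file lists unique fragments, each with a barcode and its read pair count, as the authors made it. The deposited read counts per gene and single explant cell were summed per library; 66.2% to 73.9% of their reads were outside genes or not aligned and were left out. RefSeq genes of UCB_Xtro_10.0 were used because coding gene ends coincide with fragment pile-ups and, on all 10 chromosomes, lie within the range of the fragments; the last non-coding gene of Chr10 ends 8208 bases beyond the last fragment there. That table has no strand, so windows at both gene ends replaced the planned windows at gene starts.

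Barcodes were thinned once to 3000 fragments (seed 1). Midpoints were counted in 5 kb bins, 1 Mb windows and gene windows (1 kb to either side). Clusters came from latent semantic indexing (30 components), 15 neighbours and Leiden at resolution 1 in scanpy 1.11.5, with Python 3.11.15, numpy 2.4.6 and scipy 1.17.1. Intervals are exact binomial (Clopper-Pearson, 95%) unless said otherwise. No doublet caller was run and no cells were removed beyond the minimum of 3000. Spread measures were tested on simulated data. Synonyms matched chrd as chrd.1, krt12 as krt12.5, t as tbxt and noto as not. The barcodes and lists were chosen with earlier results of these data known. Genes and bins were named as members of the lists, the 10 highest windows and bins, and 5 genes per cluster. The bins at arid1a, ptma, brd2 and hes7.1 lie outside this rule and were named after their values were seen. Bulk libraries were not used here.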

Additional observations from a re-analysis of the deposited data

How the results depend on the processing

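Of 26 alternatives to the reported values, 13 stayed within 1.5 times a count or within a binomial interval. Among them were both other fragment minimums for the number of barcodes and the total of listed genes often open under all alternatives run. The interval was that of 1 barcode with 3000 fragments, or of 1455 windows, and not that of a median over 1183 barcodes. The number of clusters, 11 against 13, also stayed within its limit, although the adjusted Rand index between both partitions was 0.0982. The other 13 moved further or had no such limit set. No limit was set for the variance ratio and the distinct bins at another fragment number, and both measures depend on that number. The median share of the shortest class was 35.3% with a limit of 100 bases. The median variance ratio over chromosomes was 310 at 5000 fragments a barcode and 67.3 at 1000. Repeatedly open bins numbered 3 with 1 kb bins, 376 with 20 kb bins, 1 at 20% of barcodes, 928 at 5% and 3463 without thinning. The median gene end share was 7.80% with windows of 500 bases. Distinct bins had a median of 4162 at 5000 fragments. The windows covered had a median of 53.4% with 5 Mb windows (99.5% for the pooled profile) and 36.8% at 5000 fragments (94.2% for the pooled profile), so coverage stayed below the pooled profile in both. Clusters numbered 4 at resolution 0.5. With the more open gene end, 75 of 128 listed genes were often open and so were 32.4% of all coding genes, against 60 and 20.6% with both ends; the mesoderm list had 10 of 15 against 6, and later tissues 2 of 22 against 1. Without thinning later tissues had 0, and list medians were higher throughout (ectoderm 9.47% against 2.79%, all coding genes 4.56% against 1.35%). The alternatives for 1 Mb windows, the 5% limit, the more open gene end and the gene end share without the cluster of 113 barcodes were chosen after seeing the data. No paired analysis was possible because the 4 parts are pooled under 1 barcode suffix; for the same reason no part could be left out. At 3000 fragments most bins hold no fragment of a given barcode, so a missing fragment does not show closed chromatin.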
